A study of Sus scrofa with 105 samples.

Results

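The difference between brain regions was examined within the sham or naive piglets of a study of diffuse traumatic brain injury, by setting the hippocampus together with the amygdala against the frontal lobe of the same animal. The comparison used 36 of the 105 small RNA libraries of the series, 18 from hippocampus and amygdala and 18 from frontal lobe, taken from every animal with the group name sham/naive and paired by the animal code in the library name. All animals were female Sus scrofa, labelled untreated and with a survival of 0 to 8 days. The labels give neither age nor strain, and do not tell sham from naive animals. The tissue was formalin-fixed and paraffin-embedded, and small RNA libraries had been prepared from it with a QIAseq kit. The injured animals used for comparison, also female piglets, were 10 untreated animals at 1 day, 15 untreated animals at 6 to 8 days (1 week), and 9 given the calcineurin inhibitor cyclosporine A (CsA) at 20 mg/kg per day intravenously, with a survival of 30 hours. The miRNAs were counted under 457 mature names, of which 369 had at least 1 count in these 36 libraries and 269 passed the filter on low counts. Some names hold the same reads as another name, and counting those once left 260 distinct miRNAs, to which the counts below refer. The 18 animals are called animals 1 to 18, in the order of their frontal lobe libraries.

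MicroRNAs are short RNAs that guide Argonaute proteins to messenger RNAs and lower their translation and stability. Many are cut from a shared primary transcript with neighbouring hairpins, and each hairpin can give a 5p and a 3p arm. In the brain, miR-124, miR-128 and miR-9 are abundant in neurons or neural progenitors, miR-219 and miR-338 drive oligodendrocyte differentiation, and miR-126 marks endothelium. miR-204 is abundant in the choroid plexus, the tissue inside the ventricles, also next to the hippocampus, whose epithelium makes cerebrospinal fluid.

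Library totals had a lowest, median and highest value of 409637, 5500973 and 10115115 counts in hippocampus and amygdala, and 98996, 4768190 and 13194782 counts in frontal lobe. The total was higher in hippocampus and amygdala in 12 of 18 animals, with a geometric mean ratio of 1.18 (2-sided permutation test, p = 0.0840). Animals 15 and 16 each had a library under 1000000 counts. The let-7 family took 77.5% ± 3.69 of counts in hippocampus and amygdala and 78.7% ± 3.52 in frontal lobe (SD, n = 18 each; 2-sided permutation test, p = 0.121). Levels are given as counts per 1000000 of the library (CPM). Neuron-enriched miRNAs were abundant in both regions, and their summed level before TMM scaling ran from 29345 to 60180 CPM in hippocampus and amygdala and from 28052 to 62967 CPM in frontal lobe. Markers of other organs were low but not absent: the liver and gut list summed to 30.5 to 211 CPM in hippocampus and amygdala and 43.2 to 149 CPM in frontal lobe. No list used here marks the hippocampus or amygdala as such, so the region labels themselves were not checked.

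Of the 260 distinct miRNAs, 117 differed between the regions (45%; quasi-likelihood test of edgeR with the animal as a block, Benjamini-Hochberg adjusted p under 0.05). Of these, 61 were higher in hippocampus and amygdala (23.5%) and 56 were lower (21.5%). With every name counted, 120 of 269 were called (44.6%), 63 of them higher (23.4%) and 57 lower (21.2%). Most differences were small: 71 of the 117 were under 0.5 on the log2 scale, 39 were between 0.5 and 1, and 7 exceeded 1. Those 7 were miR-204, miR-31 and miR-7-5p, which were higher in hippocampus and amygdala, and miR-146b, miR-182, miR-183 and miR-429, which were lower. The median log2 difference over all 260 was 0.02, so the calls stood around a centre close to 0. No tested miRNA had levels free of overlap between the regions over the 36 libraries (0%). The test used differences within animals, and without the animal as a block 38 of the 269 names were called higher and 50 lower.

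**Figure D1:**
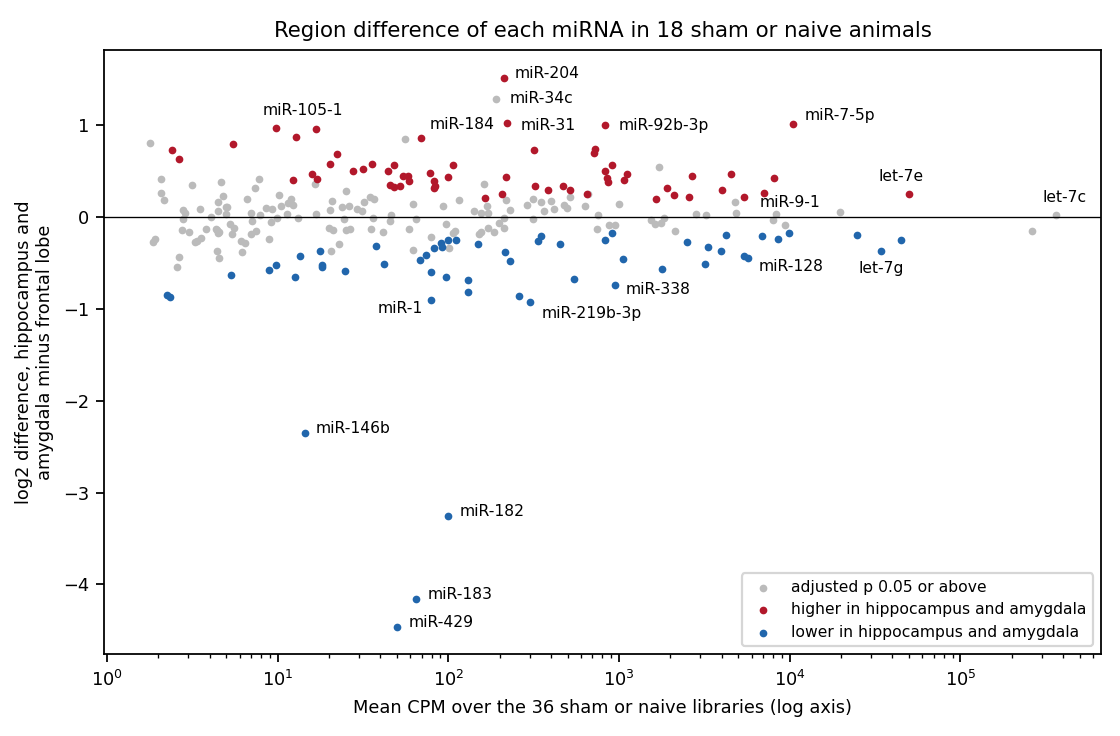
Each point is 1 of the 260 distinct miRNAs in the 18 sham or naive animals. The horizontal axis is the mean CPM over the 36 libraries on a log scale, and the vertical axis is the log2 difference, hippocampus and amygdala minus frontal lobe. The 61 red points were higher and the 56 blue points lower at an adjusted p under 0.05; miR-429, miR-183, miR-182 and miR-146b lie far below the rest.

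Few miRNAs differed the same way in every animal. Higher in hippocampus and amygdala in 18 of 18 animals were 5 miRNAs (1.92%), namely miR-7-5p, miR-31, miR-204, miR-489 and miR-184. Lower in 18 of 18 animals were 7 (2.69%), namely miR-219b-3p, miR-338, miR-27b-3p, miR-24-3p, miR-181b, miR-155-5p and miR-151-3p.

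miR-7-5p, an abundant neuronal and endocrine miRNA that binds the circular RNA Cdr1as, had a lowest, median and highest level of 8400, 14655 and 19843 CPM in hippocampus and amygdala, against 4674, 6689 and 11079 CPM in frontal lobe. Its mean was 14036 ± 3296 CPM in hippocampus and amygdala and 6940.4 ± 1559 CPM in frontal lobe (SD, n = 18 each), 2.01-fold higher (log2 1.01, SE 0.08, edgeR adjusted p = 4.53e-10). The ranges overlapped because the lowest hippocampus and amygdala libraries were below the highest frontal ones, yet within each animal the hippocampus and amygdala library was the higher. The other arm of the hairpin, miR-7-3p, was near the limit of detection, with medians of 2.48 CPM in hippocampus and amygdala and 2.63 CPM in frontal lobe, and did not pass the test (log2 -0.44, SE 0.22, edgeR adjusted p = 0.108).

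miR-31, best known as a regulator in epithelia and tumours, had a lowest, median and highest level of 166, 237 and 566 CPM in hippocampus and amygdala, against 82.9, 139.9 and 209 CPM in frontal lobe. It was 2.02-fold higher (log2 1.02, SE 0.10, edgeR adjusted p = 1.2e-08). miR-184 ran from 53.9 to 177 CPM with a median of 71.1 in hippocampus and amygdala, and from 24.1 to 118 CPM with a median of 45.9 in frontal lobe. It was 1.82-fold higher (log2 0.86, SE 0.10, edgeR adjusted p = 2.78e-07). miR-489 had medians of 356 CPM in hippocampus and amygdala and 264 CPM in frontal lobe and was 1.66-fold higher (log2 0.73, SE 0.12, edgeR adjusted p = 2.02e-05). For all 3 the ranges of the regions overlapped, and the upper tail was longer in hippocampus and amygdala.

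**Figure D2:**
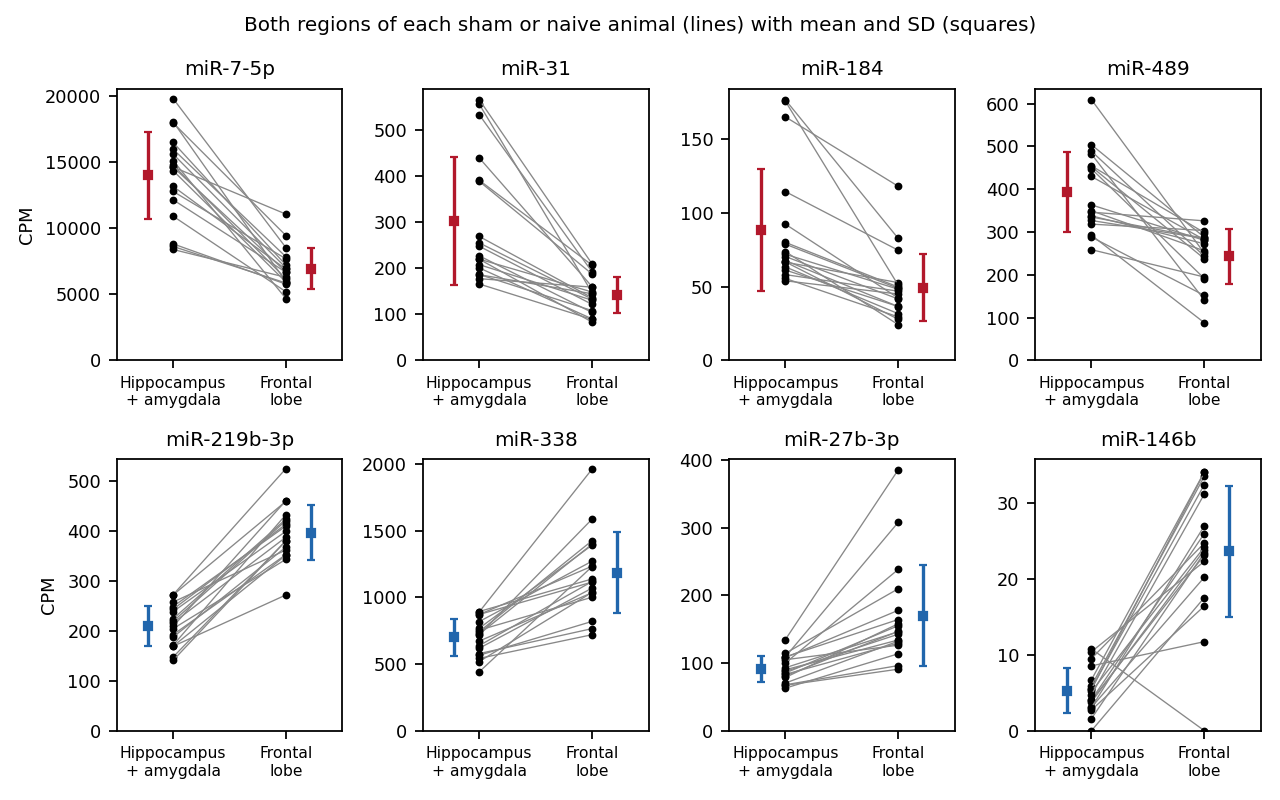
The vertical axes give CPM with TMM factors, starting at 0, for 8 miRNAs. Points joined by a line are the hippocampus and amygdala library (left) and the frontal lobe library (right) of 1 animal, and squares with bars are the mean ± SD of the 18 libraries of a region. The lines of miR-7-5p, miR-31, miR-184 and miR-489 all run down to frontal lobe, and those of miR-219b-3p, miR-338 and miR-27b-3p all run up; miR-146b has a single animal that goes the other way.

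Of the 3 tested oligodendrocyte and myelin miRNAs, 2 were lower in hippocampus and amygdala, against 21.5% lower over all miRNAs. miR-219b-3p ran from 140.5 to 272 CPM with a median of 212 in hippocampus and amygdala, and from 271 to 524 CPM with a median of 393 in frontal lobe. The regions all but separated: 17 of the 18 frontal libraries were above every hippocampus and amygdala library. It was 1.91-fold lower (log2 -0.93, SE 0.07, edgeR adjusted p = 2.47e-10), and the paired log2 differences had an SD of only 0.25 over the 18 animals. miR-338, which acts with miR-219 in myelinating cells, ran from 441 to 893 CPM with a median of 721 in hippocampus and amygdala, and from 719.6 to 1961 CPM with a median of 1128 in frontal lobe. It was 1.67-fold lower (log2 -0.74, SE 0.08, edgeR adjusted p = 4.59e-08). The remaining member of the list, miR-219a, was scarce, with medians of 1.94 CPM in hippocampus and amygdala and 1.72 CPM in frontal lobe (log2 0.25, SE 0.36, edgeR adjusted p = 0.61). In bulk tissue such as this, fewer cells of a type and less of a miRNA per cell cannot be told apart.

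Of 9 tested members of the astrocyte-associated list, 7 were lower in hippocampus and amygdala and none was higher, against 21.5% lower and 23.5% higher over all miRNAs. The median log2 difference of the list was -0.47, against 0.02 over all miRNAs. The 7 were members of the miR-23, miR-24 and miR-27 families and miR-29c, whose call was lost with RLE scaling, without let-7 and without animals 15 and 16 (edgeR adjusted p of 0.0517, 0.0882 and 0.103). The miR-23, miR-24 and miR-27 members come from paralogous groups of neighbouring hairpins, so they are not independent of each other. miR-27b-3p ran from 62.8 to 134 CPM with a median of 88.7 in hippocampus and amygdala, and from 90.9 to 385 CPM with a median of 146 in frontal lobe. It was 1.77-fold lower (log2 -0.82, SE 0.09, edgeR adjusted p = 3.36e-08). Its neighbour miR-23b was 1.82-fold lower, with medians of 177 CPM in hippocampus and amygdala and 332 CPM in frontal lobe (log2 -0.87, SE 0.11, edgeR adjusted p = 6.12e-07). miR-24-3p was 1.38-fold lower and the most even of the set, with an SD of the paired log2 differences of 0.15. From the paralogous transcript, miR-27a and miR-23a were also lower, at log2 -0.59 (SE 0.14) and -0.47 (SE 0.10). miR-29b and miR-29a-3p gave log2 differences of 0.10 (SE 0.07) and -0.02 (SE 0.09), and neither passed the test.

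Neuron-enriched miRNAs split. Of 13 tested, 5 were higher in hippocampus and amygdala and 3 were lower, with a median log2 difference of 0.08. Over all miRNAs, 23.5% were higher and 21.5% lower. miR-137, which is linked to synaptic function, was higher, with medians of 968 CPM in hippocampus and amygdala and 649.5 CPM in frontal lobe (log2 0.50, SE 0.10, edgeR adjusted p = 0.000279). miR-218b and miR-149 were higher too, at log2 0.44 (SE 0.11) and 0.26 (SE 0.08). miR-128 was lower in 17 of 18 animals, with medians of 4603 CPM in hippocampus and amygdala and 6555 CPM in frontal lobe (log2 -0.45, SE 0.07, edgeR adjusted p = 1.48e-05). miR-124a, the best known neuronal miRNA, was lower by less, with medians of 7601 CPM in hippocampus and amygdala and 9259.8 CPM in frontal lobe (log2 -0.24, SE 0.07, edgeR adjusted p = 0.00501). miR-9-1 and miR-138 gave log2 differences of -0.03 (SE 0.08) and 0.02 (SE 0.06), with edgeR adjusted p of 0.739 and 0.75.

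miR-132, whose transcription is induced by neuronal activity through CREB, was lower in 17 of 18 animals. Its lowest, median and highest levels were 65.3, 101 and 127 CPM in hippocampus and amygdala, against 74.9, 165 and 218 CPM in frontal lobe (log2 -0.69, SE 0.09, edgeR adjusted p = 7.52e-07). miR-212, from the same primary transcript, was scarce and did not pass the test, with medians of 4.83 CPM in hippocampus and amygdala and 7.71 CPM in frontal lobe (log2 -0.38, SE 0.18, edgeR adjusted p = 0.0841).

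Both tested choroid plexus and ciliated ependyma markers had their largest values in hippocampus and amygdala, but they varied widely between animals. miR-204 had a lowest, median and highest level of 86.3, 178 and 1094 CPM in hippocampus and amygdala, against 29.9, 77.1 and 150.0 CPM in frontal lobe. It was 2.85-fold higher (log2 1.51, SE 0.29, edgeR adjusted p = 0.000524), and 10 hippocampus and amygdala libraries were above every frontal one. miR-34c, which multiciliated cells make, had a lowest, median and highest level of 3.95, 273 and 698 CPM in hippocampus and amygdala, against 6.09, 89.9 and 163 CPM in frontal lobe. It did not pass the test (log2 1.28, SE 0.63, edgeR adjusted p = 0.114), although it did by DESeq2 (adjusted p = 0.0133). In 11 animals the hippocampus and amygdala library was above every frontal library, and in animals 1, 3, 4 and 17 it was under 10 CPM. In animals 1, 3, 4, 14 and 17 miR-34c was higher in the frontal library of the same animal, by over 10-fold in 2 of them. The 7 hippocampus and amygdala libraries with over 300 CPM of miR-204 were all among the 8 with over 400 CPM of miR-34c, thresholds chosen after the values were seen. How much choroid plexus or ependyma each block held was not measured, and its part in other differences was not tested.

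The largest differences of all were those of miR-429, miR-183 and miR-182, of the epithelial miR-200 and sensory miR-183 clusters, and they came from a subset of frontal libraries. miR-429 had a lowest, median and highest level of 0, 0.837 and 25.9 CPM in hippocampus and amygdala, against 0, 21.9 and 507 CPM in frontal lobe (log2 -4.46, SE 1.12, edgeR adjusted p = 0.00381). miR-183 had 0, 1.53 and 30.3 CPM in hippocampus and amygdala, against 0, 37.7 and 508 CPM in frontal lobe (log2 -4.16, SE 1.11, edgeR adjusted p = 0.00604). miR-182 had 0.560, 4.04 and 49.6 CPM in hippocampus and amygdala, against 0, 53.7 and 805 CPM in frontal lobe (log2 -3.25, SE 0.96, edgeR adjusted p = 0.0116).

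For all 3 miRNAs the same 9 frontal libraries, of animals 1, 2, 4, 6, 8, 9, 10, 15 and 18, were above every hippocampus and amygdala library. The place of animal 15 rests on few reads, 5, 8 and 8 counts of miR-429, miR-183 and miR-182 in its frontal library of 98996 counts. The other 9 frontal libraries lay within the hippocampus and amygdala range, apart from animal 16, whose 0 CPM of miR-182 was below it. In 4 of 18 animals each was higher in hippocampus and amygdala. The partners miR-200b, miR-141 and miR-96-5p were too unevenly detected to pass the filter, with sums over the 18 libraries of 102, 66 and 13 counts in hippocampus and amygdala and 6340, 4553 and 1659 counts in frontal lobe. The paired log2 differences of the 3 tested miRNAs had SDs of 3.58 to 3.99, against a median of 0.526 over all miRNAs. Without animal 5, the log2 difference of miR-429 was -5.05. Whether the 9 frontal blocks held epithelium or another tissue was not tested.

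**Figure D3:**
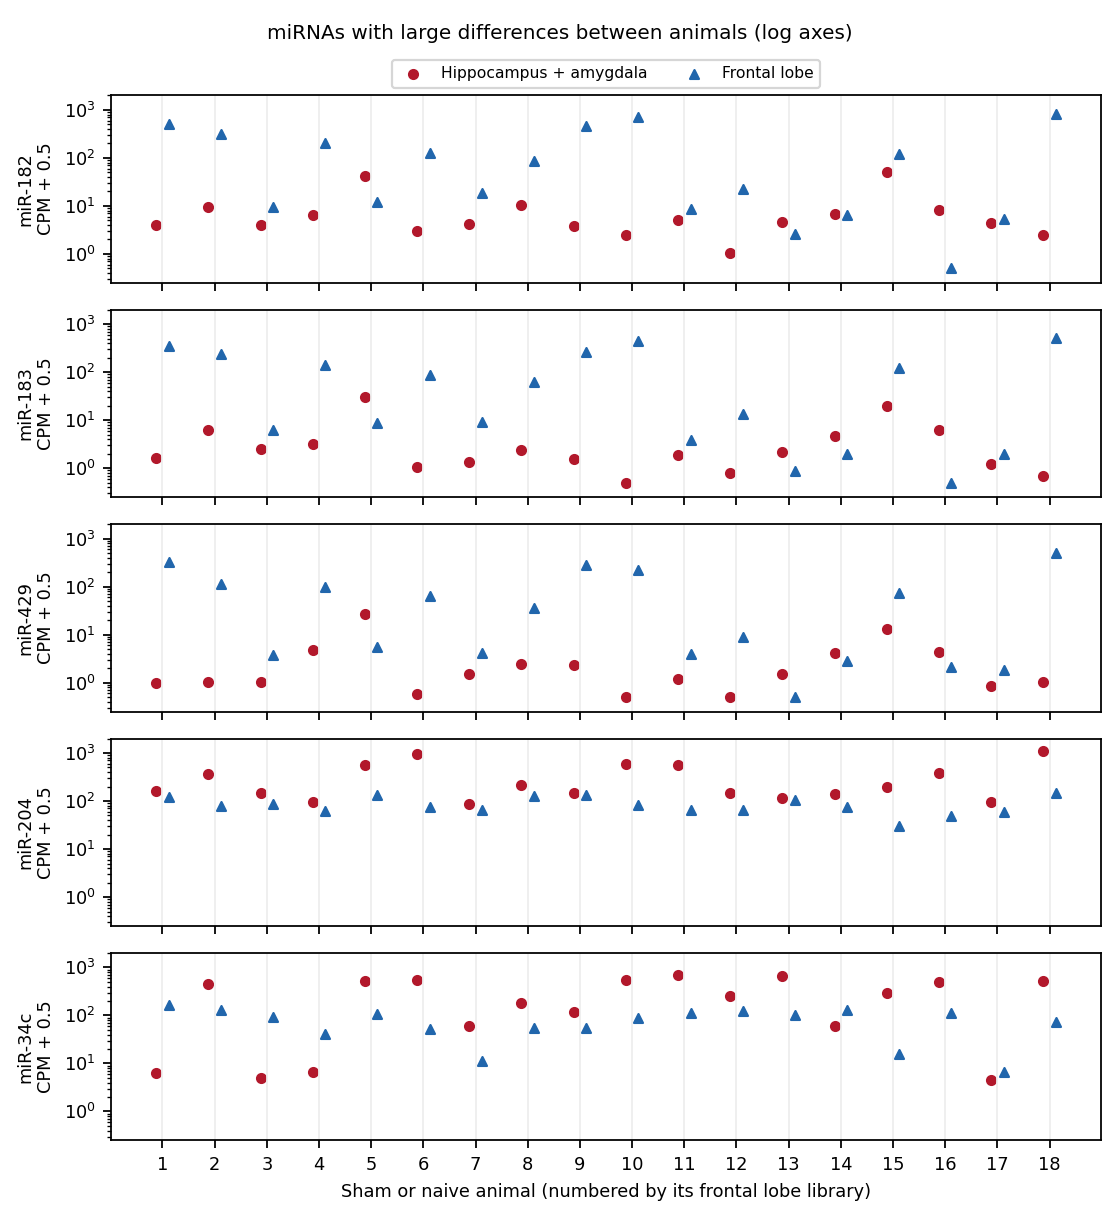
Each column is 1 sham or naive animal, red circles are hippocampus and amygdala, blue triangles are frontal lobe, and the log axes give CPM plus 0.5 so that 0 can be shown. In the upper 3 rows (miR-182, miR-183, miR-429) the same 9 frontal libraries stand above every hippocampus and amygdala library. In the lower rows (miR-204, miR-34c) it is the hippocampus and amygdala values that vary most, from 86.3 to 1094 CPM and from 3.95 to 698 CPM.

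Unlike the epithelial miRNAs, miR-146b was lower in hippocampus and amygdala in nearly every animal. This miRNA shares its seed with miR-146a, a brake on Toll-like receptor signalling. It had a lowest, median and highest level of 0, 4.94 and 10.8 CPM in hippocampus and amygdala, against 0, 24.0 and 34.1 CPM in frontal lobe. It was 5.10-fold lower (log2 -2.35, SE 0.22, edgeR adjusted p = 5.86e-09) and lower in 17 of 18 animals. The exception, animal 15, had 0 counts in the smallest frontal library, of 98996 counts, where a count of 0 allows up to 3 counts. On the same list of microglia and inflammation, miR-155-5p was lower in 18 of 18 animals, with medians of 182 CPM in hippocampus and amygdala and 260.3 CPM in frontal lobe (log2 -0.48, SE 0.07, edgeR adjusted p = 5.69e-06). miR-21-5p and miR-21-3p did not pass the test, at log2 -0.08 (SE 0.11) and -0.28 (SE 0.29). miR-146a-5p was below the filter, with 217 counts in hippocampus and amygdala and 143 in frontal lobe over 18 libraries each.

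Among vascular and blood markers the called differences were small. Over all miRNAs, 23.5% were called higher and 21.5% lower. miR-126-3p, the endothelial miRNA, was lower in 17 of 18 animals, with medians of 3528 CPM in hippocampus and amygdala and 4548 CPM in frontal lobe (log2 -0.38, SE 0.08, edgeR adjusted p = 0.000336). Its other arm miR-126-5p was lower as well, at log2 -0.30 (SE 0.09), and the other 3 endothelial members did not pass. Of 6 mural and fibroblast members, miR-143-3p and miR-145-5p were lower, by log2 -0.28 and -0.25, and both calls were lost without let-7 (edgeR adjusted p of 0.0680 and 0.0578). Of 5 leukocyte members, miR-150, of mature lymphocytes, was lower (log2 -0.34, SE 0.09), and miR-223, miR-342 and both miR-142 arms did not pass. The only tested erythrocyte miRNA, miR-486, had medians of 193 CPM in hippocampus and amygdala and 142 CPM in frontal lobe (log2 0.36, SE 0.15, edgeR adjusted p = 0.0563).

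Of the 3 tested muscle miRNAs, miR-1 and miR-133a-3p were lower in hippocampus and amygdala and miR-206 was higher. Over all miRNAs, 21.5% were lower and 23.5% higher. miR-1, the abundant miRNA of heart and skeletal muscle, had medians of 53.5 CPM in hippocampus and amygdala and 103 CPM in frontal lobe (log2 -0.90, SE 0.15, edgeR adjusted p = 6.06e-05). miR-206 had medians of 48.1 CPM in hippocampus and amygdala and 37.6 CPM in frontal lobe (log2 0.35, SE 0.11, edgeR adjusted p = 0.0147). Its call was lost with no replicate block (edgeR adjusted p = 0.123). miR-133a-3p was scarce, with means of 1.76 CPM in hippocampus and amygdala and 2.94 CPM in frontal lobe. The liver miRNA miR-122-5p had means of 54.6 ± 33.4 CPM in hippocampus and amygdala and 69.6 ± 35.1 CPM in frontal lobe and did not pass the test (log2 -0.36, SE 0.18, edgeR adjusted p = 0.113).

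**Figure D4:**
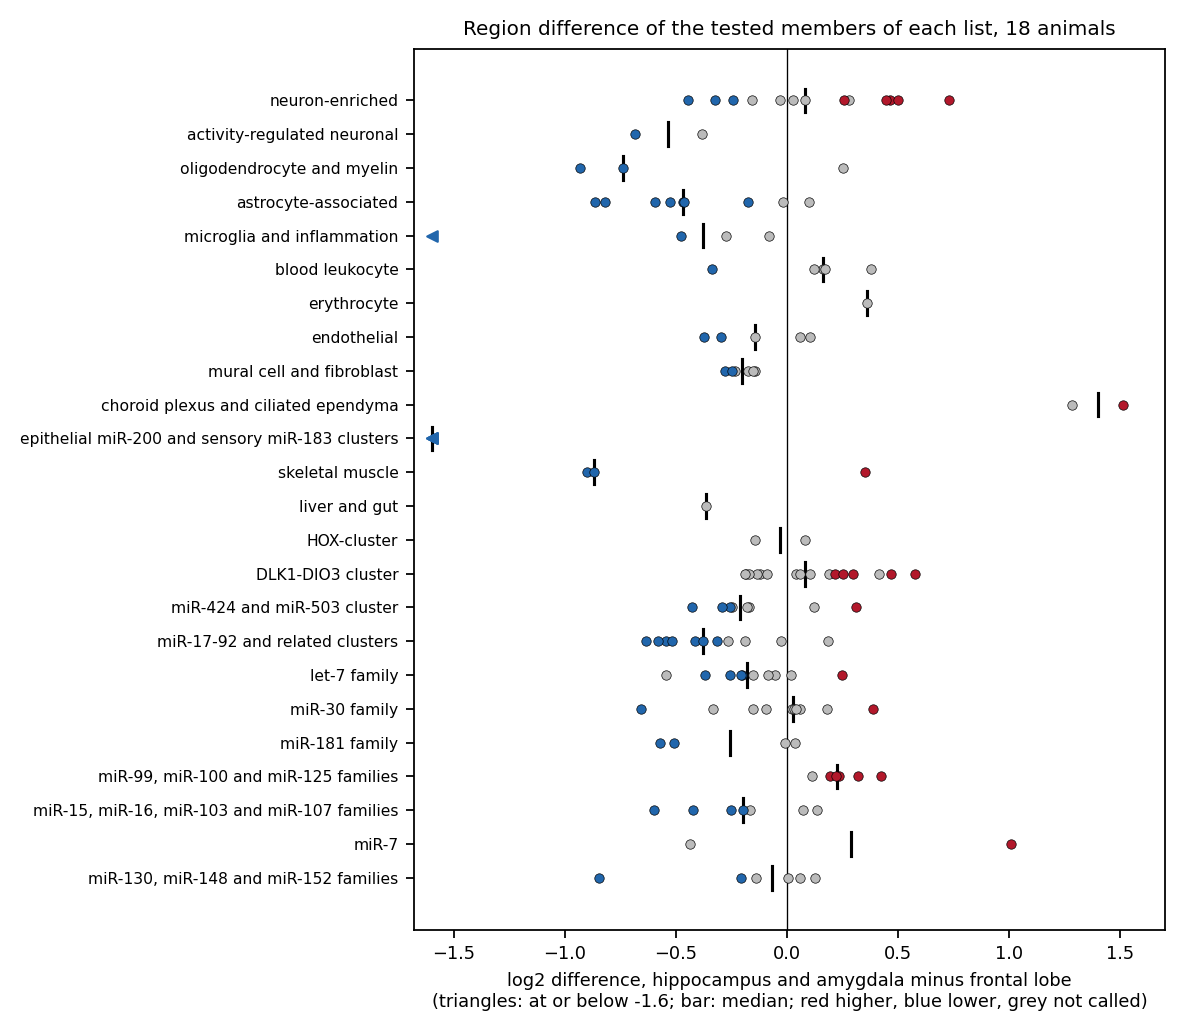
Each row is a list, each point a tested member, and the horizontal axis the log2 difference, hippocampus and amygdala minus frontal lobe, in 18 animals. Black bars are medians; red points were higher, blue points lower and grey points not called, and triangles stand for values at or below -1.6, where the 3 epithelial members lie on top of each other. The 9 astrocyte-associated points lie mostly to the left, and the miR-99, miR-100 and miR-125 points to the right.

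Families and clusters of shared sequence or transcript were described next. All 6 tested members of the miR-99, miR-100 and miR-125 families had a positive difference and 5 passed, against 23.5% higher over all miRNAs, with a median log2 difference of 0.22. Without animals 15 and 16, which have low totals, 3 of 6 passed, and miR-100 and miR-99a-5p lost their calls (edgeR adjusted p of 0.0822 and 0.0549). The neighbours miR-125a, let-7e and miR-99b, within 10000 bases of each other, were higher by log2 0.32 (SE 0.08), 0.24 (SE 0.09) and 0.42 (SE 0.11). In the imprinted DLK1-DIO3 cluster, which is expressed in neurons from the maternal chromosome, 5 of 16 tested members were higher and none was lower, with a median of 0.08. That share is close to the 23.5% called higher over all miRNAs. The most abundant of these, miR-432-5p, was higher in 17 of 18 animals, with medians of 5116 CPM in hippocampus and amygdala and 3625 CPM in frontal lobe (log2 0.47, SE 0.09, edgeR adjusted p = 0.000181). Its cluster mates miR-382, miR-370, miR-323 and miR-127 were the other 4.

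In the proliferation-linked miR-17-92 and related clusters, 7 of 11 tested members were lower in hippocampus and amygdala and none was higher, against 21.5% lower over all miRNAs. The median log2 difference was -0.38, and 6 of 11 were lower without animals 15 and 16. Examples were miR-18a and miR-20a-5p, at log2 -0.52 (SE 0.12) and -0.38 (SE 0.09). miR-92b-3p, from a separate locus but with the seed of miR-92a, went the other way, with medians of 955 CPM in hippocampus and amygdala and 563 CPM in frontal lobe (log2 0.99, SE 0.18, edgeR adjusted p = 0.000208). miR-92a itself was not called, and with RLE scaling it gave log2 -0.20 (edgeR adjusted p = 0.189). Within the miR-181 family, miR-181a and miR-181b were lower, at log2 -0.51 (SE 0.08) and -0.57 (SE 0.08). miR-181c and miR-181d-5p, from another transcript, gave 0.04 (SE 0.08) and -0.01 (SE 0.08). Of the miR-15, miR-16, miR-103 and miR-107 families, 4 of 7 tested members were lower (21.5% over all miRNAs), among them miR-16, with medians of 4611 CPM in hippocampus and amygdala and 6281 CPM in frontal lobe (log2 -0.42, SE 0.06, edgeR adjusted p = 2.91e-06). The call of miR-103 was lost without let-7 (edgeR adjusted p = 0.0503), and that of miR-107 with no replicate block (0.0501).

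The let-7 family, which holds most of the counts, differed by small amounts. Among 10 tested members let-7e was higher, and let-7f-5p, let-7g, let-7i-5p and miR-98 were lower, by log2 -0.20 to -0.37. Over all miRNAs, 23.5% were higher and 21.5% lower. let-7c, the most abundant miRNA, had means of 360351 ± 90997 CPM in hippocampus and amygdala and 361526 ± 116180 CPM in frontal lobe (log2 0.02, SE 0.10, edgeR adjusted p = 0.895). Members of this family differ by few bases and may share reads. The call of let-7e was lost without animal 4, 5 or 18, and that of let-7i-5p without animal 1 or 9, with edgeR adjusted p up to 0.0598 and 0.0581. Among other abundant miRNAs, miR-139-5p was higher, with medians of 9132 CPM in hippocampus and amygdala and 6490.0 CPM in frontal lobe (log2 0.42, SE 0.07, edgeR adjusted p = 3.29e-05).

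The remaining lists were mixed or small, and their counts stand against 23.5% higher and 21.5% lower over all miRNAs. Of 10 miR-30 family members, miR-30c-3p was higher (log2 0.39, SE 0.09) and miR-30b-5p was lower (log2 -0.66, SE 0.14). Of 8 members of the X-linked miR-424 and miR-503 cluster, miR-424-3p was higher, and miR-450a, miR-450c-3p and miR-450c-5p were lower. The call of miR-450a was lost without let-7 and without animals 15 and 16 (edgeR adjusted p of 0.0685 and 0.0590). Of 6 members of the miR-130, miR-148 and miR-152 families, both arms of miR-130b were lower. The call of miR-130b-3p was lost without let-7 (edgeR adjusted p = 0.0636), and that of miR-130b-5p with no replicate block (0.148). miR-130b-5p was scarce, with means of 1.85 CPM in hippocampus and amygdala and 2.68 CPM in frontal lobe. Neither tested HOX-cluster miRNA passed. Of 15 tested miRNAs numbered 4000 or above, 3 were higher. The most variable of them, miR-10386, ran from 52.6 to 6099 CPM in hippocampus and amygdala and from 26.9 to 13044 CPM in frontal lobe, with a log2 difference of -0.04 (SE 0.25).

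The other miRNAs with the largest differences belong to no list, and had a mean of at least 10 CPM in 1 of the regions. Higher in hippocampus and amygdala were miR-105-1 (log2 0.96), miR-92b-5p (0.96), miR-532-3p (0.87), miR-139-3p (0.73), miR-296-3p (0.69), miR-1343 (0.68), miR-935 (0.58) and miR-769-3p (0.56). Lower were miR-34a, a p53 target (log2 -0.68), and miR-365-3p (-0.65). The edgeR adjusted p of these was between 1.6e-05 and 0.00843.

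Arms of a hairpin and neighbouring hairpins were compared next, since they come from a shared transcript. Both arms were tested for 54 hairpins, and their differences had the same sign in 37. In 13 hairpins both arms were called, 12 of them in the same direction. The exception was miR-129a, a neuronal hairpin whose 3p arm was higher, with medians of 17.0 CPM in hippocampus and amygdala and 13.9 CPM in frontal lobe (log2 0.46, SE 0.17, edgeR adjusted p = 0.0256). The 5p arm was lower, with medians of 2835 CPM in hippocampus and amygdala and 3641 CPM in frontal lobe (log2 -0.33, SE 0.11, edgeR adjusted p = 0.0152). The 5p call was lost without animals 15 and 16 (edgeR adjusted p = 0.0551), and the 3p call with no replicate block (0.114). Of 29 groups of hairpins within 10000 bases of each other, 13 had at least 2 called miRNAs. In 3 of these 13 the called miRNAs were all higher and in 10 all lower, and none held calls in both directions. The adjacent miR-532-3p, miR-532-5p, miR-500-3p, miR-500-5p and miR-362 were all higher. The groups share reads of families present in more than 1 place, so they are not independent.

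The same comparison was then made in the injured animals, which share no library with the sham or naive animals. All 117 miRNAs called in the 18 sham or naive animals had the same sign in the 34 injured animals and were called there, where 68.8% of all 298 distinct miRNAs tested were called, 32.2% higher and 36.6% lower. The median ratio of the injured to the sham or naive log2 difference was 1.20 over the 117. It was 1.14 at 1 day, 0.944 at 1 week and 1.48 with CsA. By group, 105 were called with the same sign at 1 day (46.6% of all called), 100 at 1 week (43.6%) and 105 with CsA (57%).

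Values of single miRNAs in the injured animals were as follows. miR-219b-3p averaged 192 ± 41.6 CPM in hippocampus and amygdala and 378 ± 52.0 CPM in frontal lobe of injured animals, and was lower in 34 of 34 (log2 -0.99, SE 0.05). miR-146b averaged 8.35 ± 4.52 CPM in hippocampus and amygdala and 31.9 ± 6.56 CPM in frontal lobe of injured animals, and was also lower in 34 of 34 (log2 -2.05, SE 0.13). miR-31, miR-184, miR-489 and miR-204 were higher in hippocampus and amygdala in 34 of 34, and miR-7-5p in 33 of 34. miR-34c, not called in sham or naive animals, was called higher in injured animals (log2 1.52, SE 0.45, edgeR adjusted p = 0.0029).

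The difference between sham or naive and injured animals was tested in a fit of all 52 animals with both regions. No miRNA of 307 names tested differed between sham or naive and 1 day, 1 week, CsA or the mean of the 3 injured groups by edgeR (0% each). At an unadjusted p under 0.05 there were 5, 5, 75 and 24, and the smallest adjusted p were 0.965, 0.993, 0.0702 and 0.445. limma voom called 0 in each comparison, and DESeq2 called 27 against CsA and 0 in the other comparisons. For miR-7-5p the log2 region difference in this fit was 0.98 (SE 0.09) in sham or naive animals and 0.41 (SE 0.13) with CsA, an estimated gap of 0.57 (SE 0.16, edgeR adjusted p = 0.0702). For miR-1 it was -0.94 (SE 0.15) in sham or naive animals and -1.77 (SE 0.21) with CsA, a gap of 0.83 (SE 0.25, edgeR adjusted p = 0.0702).

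**Figure D5:**
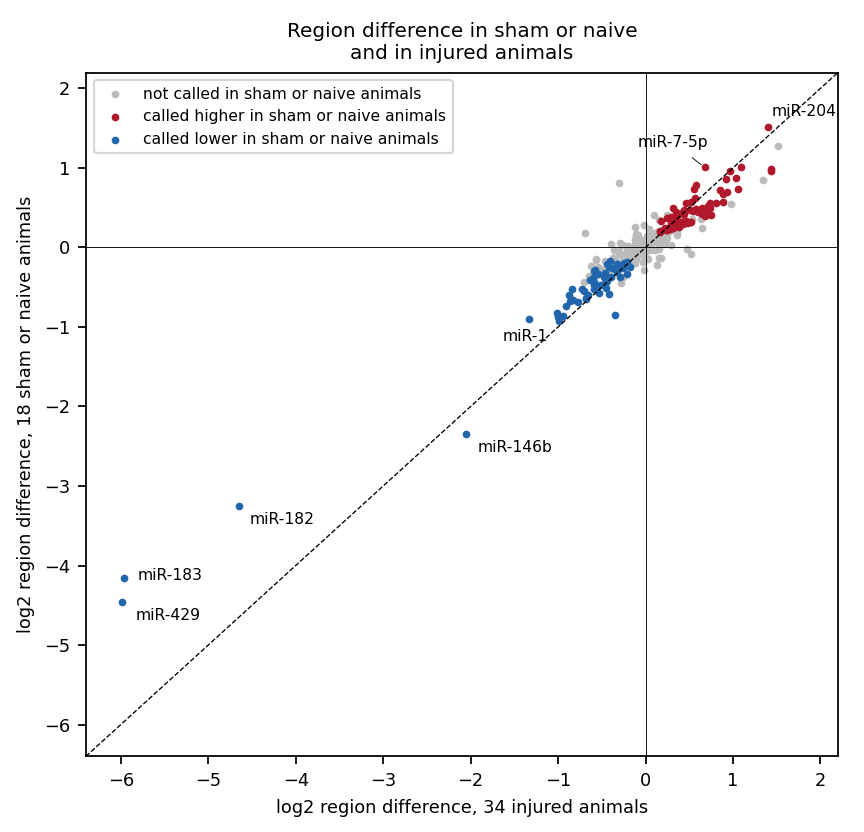
Each point is a distinct miRNA tested in both fits. The vertical axis is the log2 region difference, hippocampus and amygdala minus frontal lobe, in 18 sham or naive animals, and the horizontal axis is that of 34 injured animals; the dashed line marks equal values. The 61 red and 56 blue points, called in sham or naive animals, all lie in the quadrants of equal sign.

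The animal codes begin with 2 digits whose meaning the labels do not give, and the difference was recomputed within the groups they form. In the 7 animals with codes 10 or 11, 111 of the 113 called miRNAs that could be tested had the same sign. In the 5 with codes 12 or 13 it was 117 of 117, and in the 6 with codes 14 or 16 it was 115 of 115. The calls were made with these same animals, so equal signs within a group are partly fixed in advance and are no independent check. With fewer animals in each group, 17 of the called miRNAs were called again in codes 10 or 11. It was 29 in codes 12 or 13 and 55 in codes 14 or 16. miR-183 and miR-182 were not called within any of the 3 code groups, and miR-429 not in the 2 in which it was tested; their log2 differences ran from -7.70 to -1.54. miR-204 was called in codes 10 or 11 (log2 1.87) but not in codes 12 or 13 (1.82) or 14 or 16 (0.93). The labels give no batch of extraction or sequencing, so a batch that followed the regions could not be told apart from the regions.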

How the data were processed

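The values were raw counts per mature miRNA, used as the authors deposited them. The submitters' processing notes name Trimmomatic 0.39 and cutadapt 1.9.1. For the aligner, counter, annotation and build: not given in the sources used here. Whether molecular identifiers were collapsed is likewise unstated, so counts may not be independent molecules. Of 542 entries, repeated mature names were reduced to the entry with the highest total (457 names). A further 9 names, in 6 sets, differed by less than 0.01 of the total and are counted once in the text. The most similar pair of sham or naive libraries differed by more than sampling noise (chi-square 4799, 227 degrees of freedom).

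The region difference was tested with edgeR 4.0.16 in R 4.3.3 (glmQLFit, robust; glmQLFTest), after TMM scaling and filterByExpr (minimum count 10, minimum total 15). The animal was a block, with each code taken as 1 animal. The correlation of both libraries' deviations from the region means had a median of 0.284 (14 of 18 animals over 0.1). Between different animals the median was -0.0103 (94 of 306 pairs over 0.1). The highest value was 0.711 within an animal and 0.718 between different animals. In 4 of 18 animals the hippocampus and amygdala library correlated best with its own frontal library, so the pairing was only weakly visible in the counts. CPM carry TMM factors unless stated, paired log2 differences use a pseudocount of 0.5 CPM, and SE is the log2 difference divided by the root of F. Permutation tests used 100000 sign flips, and p-values are 2-sided. Injured animals entered a fit of all 52 pairs, which shares the dispersion. Per the series design text 50 subjects were used and the codes give 53, so whether each code is 1 animal is uncertain. The part of the code before the hyphen is shared with another sham or naive animal in 2 of the 18, and with an injured animal in 3. DESeq2 1.42.0 and limma 3.58.1 were alternatives. The fit was tested on simulated data, with 25 miRNAs changed at each fold. It recovered 28% at 1.25-fold, 80% at 1.5-fold and 100% at 2-fold and 3-fold, with 0 false calls. A miRNA that did not pass may therefore still differ by a small amount. Neighbouring hairpins came from RefSeq's Sscrofa11.1 (228 of 260 matched by name).

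The members, the 25 lists and the rules were chosen with earlier results of these data known. The text names called miRNAs with at least 10 CPM in either region (the 15 largest increases, the 15 largest decreases and the 10 most abundant), their other arms and members of the lists; other miRNAs named were chosen after their values were seen.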

Additional observations from a re-analysis of the deposited data

How the results depend on the processing

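The 120 calls became 88 with no replicate block (38 higher, 50 lower), which lost miR-92b-5p, miR-139-3p, miR-769-3p, let-7e and miR-149 of the 39 miRNAs named by size or abundance. With 1 animal left out there were 105 to 126 calls. Within codes 10 or 11, 12 or 13 and 14 or 16, with fewer animals in each, there were 17, 29 and 64 calls. There miR-98 changed sign in codes 10 or 11 (log2 0.0047, against -0.21). DESeq2 called 131, and 27 between sham or naive animals and CsA where edgeR called 0; the cause was not tested. The other 10 alternatives of scaling, filter, entries, merging, depth, fit and low libraries gave 112 to 152 calls and kept the direction and the call of each of the 39 named miRNAs they tested. Of 72 called members of the lists, 7 lost the call without the animals under 1000000 counts, 6 of 67 without let-7, 1 with RLE scaling, 0 with DESeq2 and 18 with no replicate block, and none of these changed sign. No scaling moved the median of all miRNAs by over 0.014 (log2). Without the 2 animals under 1000000 counts there were 116 calls, the ratio of totals was 1.07 (2-sided permutation test, p = 0.302) and the let-7 share differed by -1.01 percentage points (p = 0.173). Depth limits miRNAs of a few CPM: 70 of the tested names had 0 counts in at least 1 library. Permutation and model p-values cover the spread between animals as coded, and sampling of blocks was not replicated within an animal.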

Other observations

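With DESeq2, 27 miRNAs had a region difference that was not the same in sham or naive animals and in animals given CsA, while edgeR called none of them (75 at an unadjusted p under 0.05). By size the first were miR-200b, miR-183, miR-429 and miR-182, whose log2 region difference in the edgeR fit was -4.77, -4.26, -4.63 and -3.32 in sham or naive animals and -8.65, -8.40, -8.63 and -6.65 with CsA. Among miRNAs of even detection, miR-423-5p had log2 differences of 0.52 in sham or naive animals and 1.42 with CsA, and miR-126-5p had -0.33 in sham or naive animals and -0.93 with CsA. miR-150 went the other way in size, with -0.37 in sham or naive animals and -0.01 with CsA. These miRNAs were chosen after their values were seen.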
